A study of Homo sapiens with 15 samples.

Results

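Ov4Carbo7, a carboplatin-resistant line grown from 1 cell, was compared with the parental ovarian cancer line OVCAR4 across all genes measured. The comparison rests on 6 of the 15 RNA samples of the study, 3 of Ov4Carbo7 and 3 of the parental line, which were taken from the deposited expression table by matching the number in each column name to the sample titles. OVCAR4 is an established human cell line of high-grade serous ovarian cancer, and the samples of it, named Ovcar4Parental, are labelled sensitive to carboplatin and cisplatin. OVCAR4 cells kept in rising concentrations of carboplatin gave the resistant population Ov4Carbo, from which the single-cell lines Ov4Carbo4 and Ov4Carbo7 were derived, and a parallel selection with cisplatin gave Ov4Cis. All lines were grown in the same serum-containing medium with antibiotics, and RNA was captured by its polyA tail before sequencing. The labels do not say whether carboplatin was present when the cells were harvested. Because Ov4Carbo7 descends from 1 cell, its 3 biological replicates are separate samples of 1 clone. The p-values rest on the spread between replicates within lines, shared for each gene over all 5 lines. They do not measure the spread between independently selected clones.

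Carboplatin enters cells, binds to DNA and crosslinks it, and cells answer such damage through the Fanconi anemia, homologous recombination and nucleotide excision repair pathways. Cells can also lower their exposure to drugs with ATP-driven pumps of the ABC family, with glutathione, and with metallothioneins, small proteins that bind metals. High-grade serous cancer cells usually keep an epithelial character, built on E-cadherin junctions, claudins, desmosomes and keratins and held by transcription factors such as GRHL2 and OVOL2, which act against the mesenchymal factors ZEB1 and TWIST1. Hypoxia-inducible factors raise glucose uptake and glycolysis, and interferons induce antiviral genes through STAT2 and IRF9.

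Expression was given as log2 RPKM (reads scaled to gene length and to the total of the sample) for 16604 genes, and the median of each sample was 2.77 after the normalization of the authors. The table holds no read numbers, which leaves the depth of each sample unknown, and precision was judged from the replicates alone. Values near the lowest of each sample, between -8.18 and -7.68, stand for genes with few or no reads, and differences against such a value are large and uncertain in size. For some of these the difference on the log2(RPKM + 1) scale is given too, which understates changes of low genes, and calls of named genes that ended on that scale are stated beside them. The sample titles carry 2 series of numbers, which the labels do not call a batch. All Ov4Carbo7 and Ov4Carbo4 samples and replicate 1 of Ov4Carbo are in one series, and the parental samples, Ov4Cis and replicates 2 and 3 of Ov4Carbo are in the other, so a difference between the series cannot be told apart from the difference between Ov4Carbo7 and the parental line. A term for the series could be fitted only through the replicates of Ov4Carbo, and calls of named genes that ended or arose with it are stated beside them. By the same rule it called 9.24% of genes higher and 7.4% lower.

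The cells carried markers of Müllerian epithelium in both lines. PAX8, a transcription factor that marks this lineage, stood at 6.87, 6.68 and 6.68 log2 RPKM in Ov4Carbo7 and 6.05, 6.01 and 5.97 in the parental line. SOX17, a factor of the same lineage, stood at 6.68, 6.66 and 6.62 log2 RPKM in Ov4Carbo7 and 6.55, 6.90 and 7.28 in the parental line. Both were high in all 6 samples, and the PAX8 groups did not overlap while those of SOX17 did. WT1, which marks most serous cancers, was low in both lines, from -4.40 to -4.01 in Ov4Carbo7 and from -6.37 to -3.74 in the parental line. Of the 6 endothelial markers analysed 0 rose and 1 fell, and of the 6 mesothelial markers 1 rose and 1 fell. Of 16 leukocyte markers listed, 2 were analysed, and their summed level was 1.19 to 1.89 RPKM in Ov4Carbo7 and 0.674 to 1.33 RPKM in the parental line.

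A gene was called changed at an adjusted p under 0.05 and a log2 difference of at least 1. By this rule 2824 of 16604 genes (17%) were called, 1538 higher in Ov4Carbo7 (9.26%) and 1286 lower (7.75%). These shares over all genes are the background for the counts of rises and falls in each list. On the log2(RPKM + 1) scale 658 genes were called higher (3.96%) and 636 lower (3.83%). The 3 values of one line lay entirely above or below those of the other for 9374 genes (56.5%), with Ov4Carbo7 above for 29.5% and below for 27%, and the median difference over all genes was 0.02. The plot of all genes by line shows the called genes on both sides of the diagonal.

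**Figure D1:**
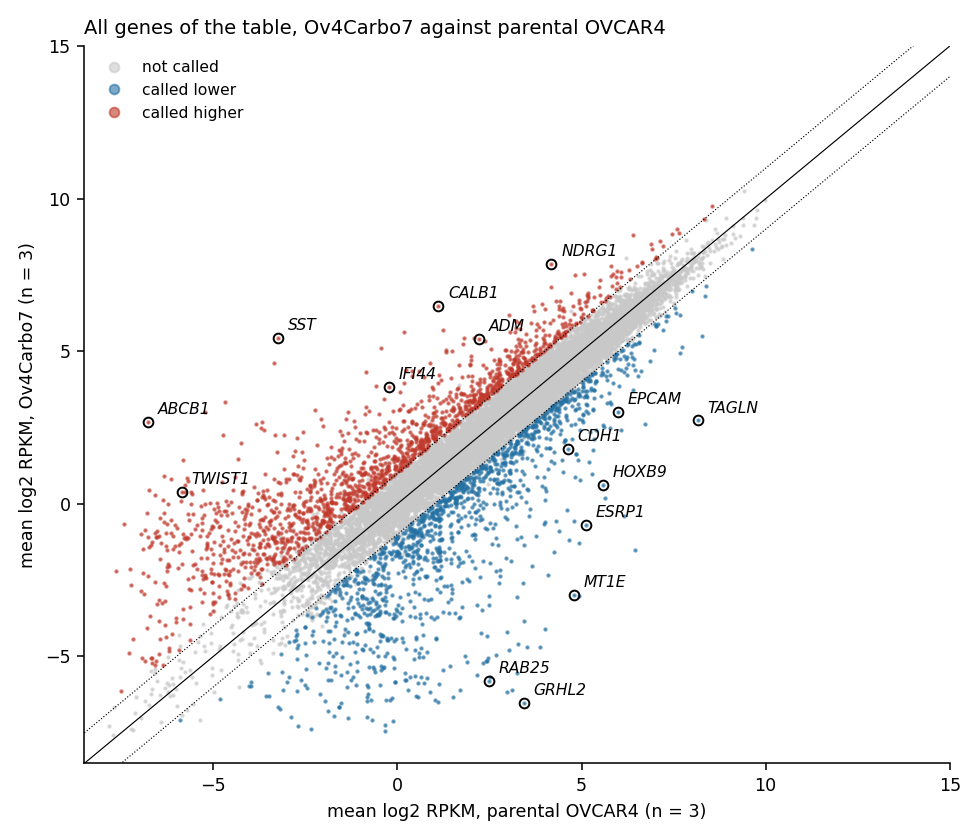
Mean log2 RPKM of each of the 16604 genes in parental OVCAR4 (horizontal axis, n = 3) and Ov4Carbo7 (vertical axis, n = 3), with genes called higher in red, genes called lower in blue and other genes in grey. The solid line marks equal levels and the dotted lines a difference of 1. The pump gene ABCB1 and the hormone gene SST lie at the upper left, and the epithelial genes GRHL2 and RAB25 at the lower right.

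Among genes of at least moderate level, the largest rises on the log2(RPKM + 1) scale were those of SST, CALB1, ROBO1, LRP1B, SLC1A1, SESN3, EPDR1, NDRG1, PRKCB, SAMD5, PLIN2 and SPARC. SST, which encodes the peptide hormone somatostatin, stood at 6.10, 5.77 and 4.47 log2 RPKM in Ov4Carbo7 and 0.73, -5.31 and -5.11 in the parental line. Its parental replicate 1 lay far above the other parental samples but below all Ov4Carbo7 samples, and the log2 difference was 8.68 (SE 1.22, adjusted p = 1.17e-04), and 4.99 by log2(RPKM + 1). CALB1, a calcium-binding protein, stood at 6.50, 6.29 and 6.70 log2 RPKM in Ov4Carbo7 and 2.14, 1.16 and 0.02 in the parental line. The 2 groups were separate, with a difference of 5.39 (SE 0.39, adjusted p = 7.16e-07). ROBO1, a receptor for the SLIT guidance proteins, differed by 5.45 (SE 0.30, adjusted p = 9.82e-08), and PRKCB, a protein kinase C isoform, by 8.01 (SE 0.23, adjusted p = 5.71e-10). LRP1B, a giant endocytic receptor, differed by 7.98 (SE 0.66, adjusted p = 1.80e-06).

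SLC1A1, a glutamate transporter, differed by 5.56 (SE 0.50, adjusted p = 3.68e-06), and SESN3, a stress-inducible protein that restrains mTORC1, by 4.47 (SE 0.29, adjusted p = 2.89e-07). The largest falls were those of MYL9, S100A14, TAGLN, DMD, MT1E, ST14, EPPK1, ESRP1, HOXB9, EPS8L1, TMEM30B and TNC. DMD, which encodes dystrophin, stood at -3.26, -2.69 and -3.13 log2 RPKM in Ov4Carbo7 and 4.40, 5.22 and 5.14 in the parental line. All 3 Ov4Carbo7 values were low and the groups were far apart, with a difference of -7.95 (SE 0.52, adjusted p = 3.46e-07). MYL9, a regulatory light chain of myosin, stood at -2.87, 1.07 and -2.74 log2 RPKM in Ov4Carbo7 and 5.97, 6.73 and 6.67 in the parental line. Replicate 2 of Ov4Carbo7 was high against replicates 1 and 3 but below all parental samples, and the difference was -7.97 (SE 0.85, adjusted p = 1.31e-05). The same replicate lay above the others for the matrix protein tenascin C (TNC), at -1.67, 1.01 and -0.98 log2 RPKM in Ov4Carbo7. Such cases were few: 10 genes stood at least 2 log2 units above both other Ov4Carbo7 samples in replicate 2, 6 in replicate 1 and 0 in replicate 3.

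Drug efflux pumps came next. ABCB1 (ENSG00000085563, chromosome 7), which encodes P-glycoprotein, a pump that exports many chemotherapy drugs but is not known as a transporter of platinum, was close to absent in the parental line and clearly expressed in Ov4Carbo7. It stood at 2.41, 2.71 and 2.94 log2 RPKM in Ov4Carbo7 and -6.45, -6.88 and -7.0 in the parental line. All parental values lay near the lowest of the table and all Ov4Carbo7 values were above 2, a difference of 9.46 (SE 1.24, adjusted p = 6.79e-05), and 2.88 by log2(RPKM + 1). It was 3.03 and still called with the title series term. In the population of origin ABCB1 stood at -0.41, -6.37 and -7.30, so the spread shared by all lines was wide for this gene, and without replicate 1 of Ov4Carbo in the fit the SE of the same difference was 0.23. This refit was chosen after the data were seen.

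Of 26 pump genes, 6 were higher and 2 lower in Ov4Carbo7, where 9.26% and 7.75% of all genes were. The median difference was 0.32 against 0.02 over all genes, and by log2(RPKM + 1) 4 were called higher. ABCC2, which exports glutathione and platinum conjugates, stood at 0.39, -0.19 and 0.51 log2 RPKM in Ov4Carbo7 and -2.01, -2.74 and -3.28 in the parental line. The groups were separate, though the parental level was low, and the difference was 2.91 (SE 0.31, adjusted p = 1.22e-05), or 0.91 and not called by log2(RPKM + 1). ABCC3, a related exporter of conjugates, stood at 2.57, 2.52 and 2.41 log2 RPKM in Ov4Carbo7 and 1.24, 0.89 and 1.13 in the parental line and differed by 1.42 (SE 0.15, adjusted p = 1.44e-05). ABCG2, the breast cancer resistance protein, differed by 2.58 (SE 0.52, adjusted p = 0.00167), but by 0.61 on the log2(RPKM + 1) scale, where it was not called. The sterol pump ABCA1 differed by 1.34 (SE 0.38, adjusted p = 0.0136), a call that ended without parental replicate 1. With the title series term the calls of ABCC3, ABCG2 and ABCA1 were lost, at 0.90, 1.54 and 0.07, which left 3 pump genes higher. ABCC1 and ABCC4 did not pass the test, at -0.10 and -0.31. ABCA3, a phospholipid transporter, fell, with a difference of -1.70 (SE 0.21, adjusted p = 4.60e-05), or -0.84 and not called by log2(RPKM + 1), where 0 pump genes were called lower.

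Of 21 genes of platinum transport and metal buffering 3 rose and 2 fell, with a median of 0.09, where 9.26% and 7.75% of all genes did. On the log2(RPKM + 1) scale 1 was called higher, and with the series term 4 were called lower. MT1E, a metallothionein, stood at -3.21, -2.67 and -3.07 log2 RPKM in Ov4Carbo7 and 5.16, 4.68 and 4.53 in the parental line. It was among the deepest falls of the whole comparison, at -7.77 (SE 0.33, adjusted p = 1.40e-08), and its Ov4Carbo7 values were all low. MT1F fell as well, with a difference of -1.49 (SE 0.36, adjusted p = 0.00513), while MT2A, a further metallothionein, stood at 6.08, 5.88 and 6.02 log2 RPKM in Ov4Carbo7 and 6.68, 6.37 and 5.79 in the parental line with overlapping groups. Metallothionein genes are near-identical copies, so reads may have been divided among them in a way that is uncertain.

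SLC47A1, an exporter of organic cations, stood at 1.97, 1.82 and 1.60 log2 RPKM in Ov4Carbo7 and -2.22, -0.54 and -1.16 in the parental line. All Ov4Carbo7 values were higher, by 3.10 (SE 0.31, adjusted p = 8.73e-06), and its neighbouring copy SLC47A2 differed by 2.74 (SE 0.52, adjusted p = 0.00101) at low levels, or 0.30 and not called by log2(RPKM + 1). ATP7A, a copper-exporting ATPase, stood at 2.53, 2.76 and 2.85 log2 RPKM in Ov4Carbo7 and 1.51, 1.57 and 1.75 in the parental line. It rose by 1.10 (SE 0.15, adjusted p = 1.11e-04), but by 0.55 with the title series term and 0.90 by log2(RPKM + 1), where it was not called. The copper importer SLC31A1, also known as CTR1, gave a difference of 0.31 (SE 0.17, adjusted p = 0.17). The channel subunits LRRC8A and LRRC8D, which form a route of platinum entry, gave 0.29 and -0.23, neither of which passed the test, though the series term turned LRRC8D to 1.06 and called it higher. ATP7B, the second copper ATPase, gave -0.72, below the size required.

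Some genes of glutathione and of the NRF2 response rose in Ov4Carbo7. NRF2 is the transcription factor, encoded by NFE2L2, that induces antioxidant enzymes, and KEAP1 marks it for degradation. Of 40 members 13 rose and 1 fell, where 9.26% and 7.75% of all genes did, with a median of 0.59. On the log2(RPKM + 1) scale 7 were called higher, as were 3.96% of all genes. NFE2L2 itself stood at 5.46, 5.46 and 5.45 log2 RPKM in Ov4Carbo7 and 4.43, 4.40 and 4.49 in the parental line. The 3 values of each line were tightly grouped and separate, with a difference of 1.02 (SE 0.12, adjusted p = 2.44e-05), just past the size required, and its call ended on the log2(RPKM + 1) scale (0.98), with the title series term (0.91) and without parental replicate 2 (1.0). KEAP1 gave 0.41 (SE 0.18, adjusted p = 0.0857).

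SLC7A11 (ENSG00000151012, chromosome 4), the cystine importer that feeds glutathione synthesis, stood at 6.30, 6.33 and 6.49 log2 RPKM in Ov4Carbo7 and 4.44, 4.23 and 3.35 in the parental line. Parental replicate 3 was the lowest of the 6 and all Ov4Carbo7 values were higher, by 2.37 (SE 0.27, adjusted p = 2.24e-05). NQO1, a quinone reductase and classical NRF2 target, stood at 6.72, 6.60 and 6.45 log2 RPKM in Ov4Carbo7 and 5.45, 5.0 and 4.34 in the parental line. The difference was 1.66 (SE 0.22, adjusted p = 8.63e-05), and TXNRD1, the cytosolic thioredoxin reductase, differed by 1.30 (SE 0.17, adjusted p = 6.51e-05). MGST1, a microsomal glutathione transferase, stood at 6.63, 6.29 and 6.21 log2 RPKM in Ov4Carbo7 and 4.25, 4.36 and 4.53 in the parental line and differed by 2.0 (SE 0.16, adjusted p = 1.75e-06). OSGIN1, an oxidative stress-induced gene, differed by 2.40 (SE 0.14, adjusted p = 1.33e-07).

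HMOX1, or heme oxygenase 1, differed by 1.22 (SE 0.32, adjusted p = 0.00854), and malic enzyme ME1 by 1.03 (SE 0.16, adjusted p = 2.87e-04), the latter not called without parental replicate 3 or by log2(RPKM + 1) (1.0). These calls were lost with the title series term, at 0.73 for HMOX1 and 0.66 for ME1. The aldo-keto reductases AKR1C1 and AKR1B10 had differences of 3.43 (SE 0.54, adjusted p = 2.77e-04) and 2.38 (SE 0.71, adjusted p = 0.0163) at low levels, and 0.89 and 0.91 by log2(RPKM + 1), where neither was called. AKR1C genes are close copies whose reads are uncertain, and the difference of AKR1B10 turned to -0.04 with the title series term and was not called without parental replicate 2 or 3. The subunits of glutamate-cysteine ligase, GCLC and GCLM, gave 0.95 and 0.41, and glutathione reductase GSR gave 0.83, all with separate groups but under the size required. The glutathione transferase GSTM3 stood at 1.32, 1.63 and 1.34 log2 RPKM in Ov4Carbo7 and 4.65, 4.26 and 4.48 in the parental line. It was the member that fell, with a difference of -3.03 (SE 0.15, adjusted p = 4.47e-08). GSTP1, of another class, gave -0.82, which was under the size required.

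Hypoxia-responsive and glycolytic genes were higher in Ov4Carbo7 as a group. Of 28 members 16 rose and 0 fell, and the median was 1.05 against 0.02 over all genes. The values of the 2 lines were separate, with Ov4Carbo7 above, for 25 members, and for 0 members below, where 29.5% and 27% of all genes were. The summed level of the 28 genes was 4387 to 4962 RPKM in Ov4Carbo7 and 2659 to 2797 RPKM in the parental line. On the log2(RPKM + 1) scale 14 were called higher.

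NDRG1 (ENSG00000104419, chromosome 8), a stress protein strongly induced by low oxygen, stood at 7.60, 7.82 and 8.19 log2 RPKM in Ov4Carbo7 and 4.62, 4.21 and 3.72 in the parental line. ADM (ENSG00000148926, chromosome 11), the precursor of the vasodilator adrenomedullin, stood at 5.46, 5.16 and 5.61 log2 RPKM in Ov4Carbo7 and 2.13, 2.55 and 1.96 in the parental line. ENO2, a glycolytic enolase, stood at 5.26, 5.26 and 5.79 log2 RPKM in Ov4Carbo7 and 2.46, 2.13 and 1.63 in the parental line. In all 3 genes the 2 groups were more than 2 log2 units apart at their nearest values, and the differences were 3.69 (SE 0.60, adjusted p = 3.59e-04), 3.19 (SE 0.26, adjusted p = 1.42e-06) and 3.36 (SE 0.28, adjusted p = 1.83e-06). SLC2A1, the glucose transporter GLUT1, stood at 6.45, 6.63 and 7.12 log2 RPKM in Ov4Carbo7 and 4.83, 5.38 and 5.28 in the parental line and differed by 1.57 (SE 0.24, adjusted p = 2.24e-04). LOX, a collagen-crosslinking enzyme induced by hypoxia, differed by 1.81 (SE 0.31, adjusted p = 4.80e-04).

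Regulators and some well known targets were not called. LDHA, which turns pyruvate into lactate, stood at 8.23, 8.27 and 8.32 log2 RPKM in Ov4Carbo7 and 7.54, 7.62 and 7.49 in the parental line, a separate but smaller difference of 0.72 (SE 0.13, adjusted p = 8.55e-04). The angiogenic factor VEGFA gave 0.78 (SE 0.33, adjusted p = 0.0766), with parental replicate 1 close to the Ov4Carbo7 samples, and 1.88 and called with the series term. HIF1A, the oxygen-regulated transcription factor, gave 0.19 (SE 0.17, adjusted p = 0.40) with overlapping groups, and EPAS1, which encodes HIF2 alpha, gave 0.66 (SE 0.40, adjusted p = 0.20). HIF1A is controlled mainly through protein stability, which RNA does not show. With the title series term 7 members were called higher and 0 lower. Under that term ADM (2.27) and ENO2 (2.93) kept their calls, and NDRG1 (0.74), SLC2A1 (0.67) and LOX (0.88) lost them. Within the title series that Ov4Carbo7 shares with Ov4Carbo4, 16 members were higher in Ov4Carbo7 and 0 lower, where 11.1% and 9.86% of all genes were. In Ov4Carbo4 the list median itself lay below the parental mean, at -0.38, -0.41 and -0.43 in its samples. NDRG1 and LOX were called lower in Ov4Carbo4 than in the parental line, at -2.33 and -2.09. This count therefore holds a fall in Ov4Carbo4 as well as the rise in Ov4Carbo7.

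**Figure D2:**
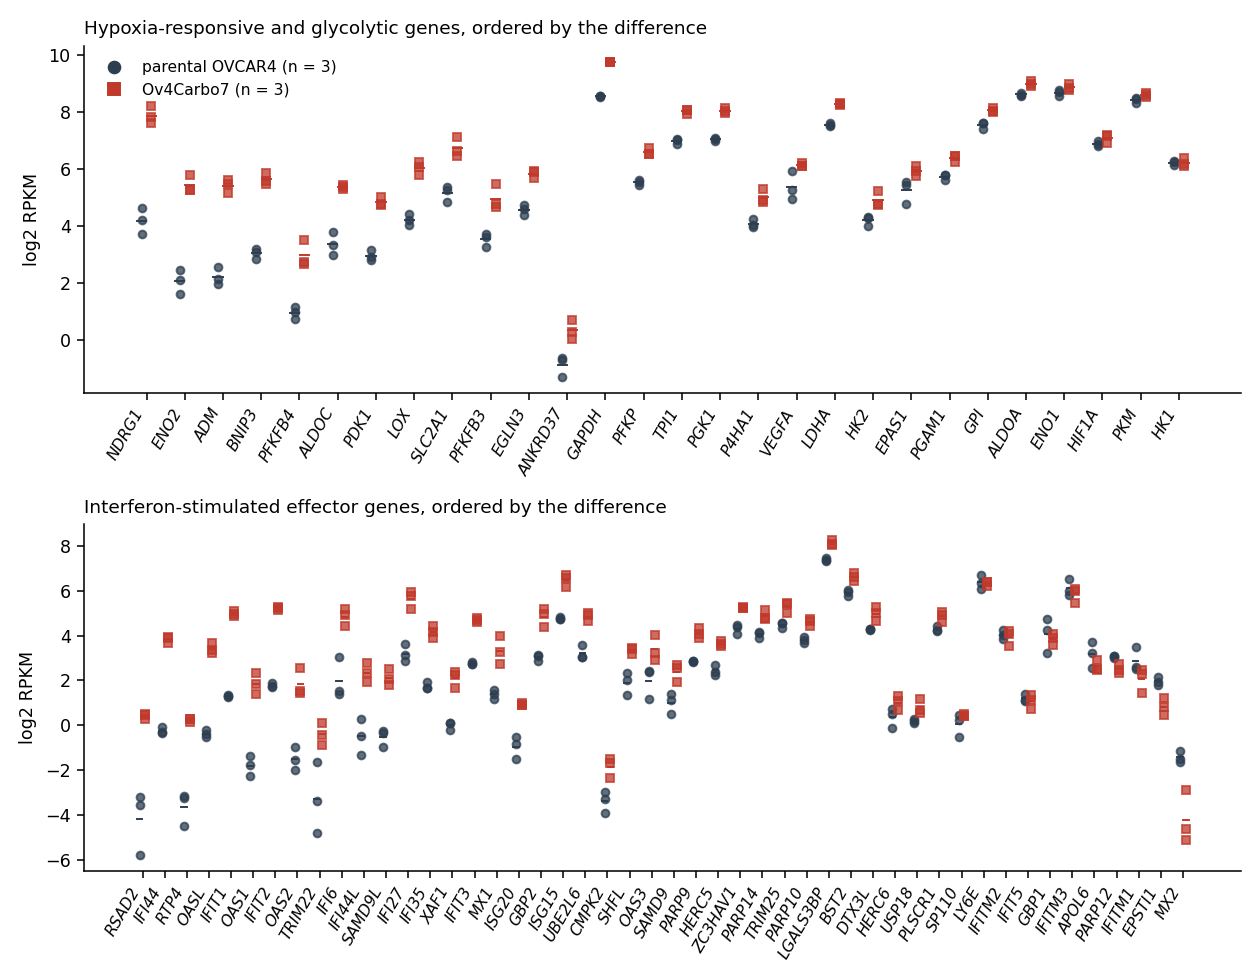
Log2 RPKM of each sample for the 28 hypoxia-responsive and glycolytic genes (top) and the 48 interferon-stimulated effector genes (bottom), parental OVCAR4 as dark circles and Ov4Carbo7 as red squares, with short lines at the means (n = 3 each). Genes are ordered from the largest to the lowest difference. Ov4Carbo7 lies above the parental line for most genes, with 16 of 28 and 25 of 48 called higher, against 9.26% of all genes.

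PLIN2, the main coat protein of lipid droplets and another gene that responds to low oxygen, stood at 5.47, 5.69 and 5.18 log2 RPKM in Ov4Carbo7 and 2.08, 2.06 and 1.26 in the parental line. The groups were separate, and the difference was 3.64 (SE 1.28, adjusted p = 0.0362). In Ov4Carbo PLIN2 stood at 2.39, -3.37 and -4.35, and without replicate 1 of that line in the fit the SE was 0.49. The call ended when any 1 of the 6 samples was left out, and with the title series term the direction turned, to -2.60. Of 28 genes of lipid droplets and lipid uptake 4 rose and 2 fell, with a median of -0.03, and 2 rose without parental replicate 3. Over all genes 9.26% rose and 7.75% fell. ACSL1, which activates long-chain fatty acids, differed by 1.35 (SE 0.21, adjusted p = 2.26e-04), and the fatty acid-binding protein FABP3 by 2.22 (SE 0.22, adjusted p = 6.32e-06). LIPE, hormone-sensitive lipase, fell, with a difference of -2.09 (SE 0.19, adjusted p = 4.35e-06), or -0.98 by log2(RPKM + 1), where 0 members of the list were called lower. HILPDA, a droplet protein induced by hypoxia, gave 0.84, and CPT1A, which admits fatty acids to mitochondria, gave -0.96. Neither reached the size required, and both passed it with the series term, at 1.11 and -1.08.

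Interferon-stimulated effector genes were higher in Ov4Carbo7. Of 48 members 25 rose and 1 fell, where 9.26% and 7.75% of all genes did, with a median of 1.40. The values of Ov4Carbo7 lay wholly above those of the parental line for 36, as they did for 29.5% of all genes. IFIT1 (ENSG00000185745, chromosome 10), which binds foreign RNA, stood at 5.11, 4.96 and 4.87 log2 RPKM in Ov4Carbo7 and 1.27, 1.29 and 1.36 in the parental line. IFI44 (ENSG00000137965, chromosome 1), an antiviral cytoplasmic protein, stood at 3.90, 3.93 and 3.66 log2 RPKM in Ov4Carbo7 and -0.30, -0.36 and -0.06 in the parental line. The 2 groups were narrow and far apart in both genes, with differences of 3.67 (SE 0.49, adjusted p = 8.10e-05) and 4.07 (SE 0.51, adjusted p = 4.89e-05). IFIT2, of the same family as IFIT1, differed by 3.44 (SE 0.49, adjusted p = 1.22e-04). Reads of the close IFIT copies may be uncertain.

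The promoters of IFIT1, IFI44 and IFI6 are printed because these members rose and their windows held GAAA, any 2 bases and GAAA again, the core of the interferon-stimulated response element. Each line gives the 200 bases before the annotated transcription start in RefSeq (GRCh38.p14), 5′ to 3′ on the strand of the gene, with matches in capitals. Both strands were searched, so a match on the opposite strand reads TTTC, any 2 bases and TTTC. The windows are chr10:89392423-89392622 (+) for IFIT1, chr1:78649589-78649788 (+) for IFI44 and chr1:27672193-27672392 (-) for IFI6.
IFIT1: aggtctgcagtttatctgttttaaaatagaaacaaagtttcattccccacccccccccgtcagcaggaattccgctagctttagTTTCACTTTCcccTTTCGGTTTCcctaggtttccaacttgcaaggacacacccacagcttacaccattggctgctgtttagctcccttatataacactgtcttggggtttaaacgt
IFI44: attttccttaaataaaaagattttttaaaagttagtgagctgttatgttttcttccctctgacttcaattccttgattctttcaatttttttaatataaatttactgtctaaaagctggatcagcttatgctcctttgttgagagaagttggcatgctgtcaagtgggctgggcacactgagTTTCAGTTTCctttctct
IFI6: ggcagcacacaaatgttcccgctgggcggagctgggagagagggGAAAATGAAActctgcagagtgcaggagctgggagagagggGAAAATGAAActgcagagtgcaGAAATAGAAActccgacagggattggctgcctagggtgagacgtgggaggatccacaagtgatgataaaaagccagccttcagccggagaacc
IFIT1 held 2 matches, IFI44 1 and IFI6 3. In the windows from 250 bases before to 50 bases after the start, 297 of 11162 promoters of genes in the table held the motif (2.66%), against 25 of the 37 interferon effectors with a window (67.6%). It was found in 13 of 20 members called higher and in 11 of 16 members not called, shares of 65% and 68.8%. For ACGTG, the core of the hypoxia response element, searched after the data were seen, the counts were 12 of 26 hypoxia genes (46.2%) and 2969 of all windows (26.6%). It was in 7 of 15 hypoxia genes called higher and in 5 of 11 not called, shares of 46.7% and 45.5%.

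IFI6, a mitochondrial interferon-induced protein, stood at 4.90, 5.19 and 4.44 log2 RPKM in Ov4Carbo7 and 1.39, 1.55 and 3.02 in the parental line. Parental replicate 3 was high but still below Ov4Carbo7, and the difference was 2.85 (SE 0.71, adjusted p = 0.00645). ISG15, a ubiquitin-like modifier, stood at 6.72, 6.56 and 6.16 log2 RPKM in Ov4Carbo7 and 4.84, 4.72 and 4.71 in the parental line and differed by 1.72 (SE 0.32, adjusted p = 9.12e-04). OAS1, which senses double-stranded RNA, differed by 3.65 (SE 0.66, adjusted p = 7.79e-04), IFI27 by 2.44 (SE 0.58, adjusted p = 0.00486) and RSAD2, or viperin, by 4.59 (SE 0.84, adjusted p = 8.25e-04), the last 1.12 by log2(RPKM + 1). IFI44L, a relative of IFI44, differed by 2.84 (SE 0.71, adjusted p = 0.0063). The GTPase MX1 differed by 1.93 (SE 0.73, adjusted p = 0.0497) and SAMD9 by 1.40 (SE 0.52, adjusted p = 0.0457). Both calls ended when any 1 of the 6 samples was left out, that of MX1 also on the log2(RPKM + 1) scale (1.61). In Ov4Carbo MX1 stood at 5.76, 2.49 and 2.37 and SAMD9 at 3.65, 1.30 and 1.22, which widened the shared spread. Without replicate 1 of that line in the fit, a refit chosen after the data were seen, their SEs were 0.38 and 0.26. Not every interferon gene rose. BST2, or tetherin, gave 0.70 and IFITM1, which blocks virus entry, gave -0.81, neither of which passed the rule. EPSTI1 fell, with a difference of -1.14 (SE 0.41, adjusted p = 0.0421), although its call ended without Ov4Carbo7 replicate 1 or 3 or any of the parental replicates, and on the log2(RPKM + 1) scale (-0.82).

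The interferon result depended on the title series. With the series term 5 members were called higher and 7 lower. Under that term IFIT1 (1.48) and IFI44 (1.59) kept their calls, ISG15 (0.43), OAS1 (0.50), IFI27 (0.41), IFIT2 (1.42) and RSAD2 (1.98) lost theirs, and IFI6, IFI44L, MX1 and SAMD9 turned to -0.07, -0.21, -1.40 and -1.0. The term rests on Ov4Carbo, where the median of the 48 genes stood 1.73 above the parental mean in replicate 1 and 0.59 and 0.32 in replicates 2 and 3. Within the shared series Ov4Carbo7 was higher than Ov4Carbo4 for 25 members and lower for 0, and in Ov4Carbo4 the median stood 0.12, 0.26 and 0.09 above the parental mean. Against Ov4Carbo, 2 members were higher and 1 lower, where 7.72% and 5.62% of all genes were. The part of the series in the rise was not tested beyond these values.

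Genes that sense or signal interferon were examined separately. Of 33 members 9 rose and 1 fell, with a median of 0.27, and 5 rose without parental replicate 3. By log2(RPKM + 1) 4 rose, and TLR3 (0.89) and IRF7 (0.92) were not called. IFIH1 (ENSG00000115267, chromosome 2), the RNA sensor MDA5, stood at 3.28, 3.39 and 3.02 log2 RPKM in Ov4Carbo7 and 0.10, 0.33 and -0.01 in the parental line. All Ov4Carbo7 values were higher, by 3.09 (SE 0.51, adjusted p = 4.19e-04). TLR3, an endosomal RNA receptor, differed by 1.69 (SE 0.30, adjusted p = 6.40e-04), and RIGI, the related cytoplasmic sensor, by 1.10 (SE 0.41, adjusted p = 0.0451). The factor IRF7, which amplifies interferon production, stood at 2.01, 2.33 and 1.78 log2 RPKM in Ov4Carbo7 and 0.73, 0.99 and 0.59 in the parental line and differed by 1.27 (SE 0.37, adjusted p = 0.0156). STAT2, which carries the interferon signal (0.27), and IRF1 (0.01) did not pass the test.

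The call of RIGI ended when any 1 of the 6 samples was left out, and that of IRF7 without Ov4Carbo7 replicate 2 or parental replicate 3. In Ov4Carbo RIGI stood at 4.09, 1.95 and 2.25, and without replicate 1 of that line in the fit its SE was 0.16. With the title series term 2 members of the sensing list were called higher, RIGI and IRF7 turned to -0.89 and -0.44, and the calls of IFIH1 (1.10) and TLR3 (0.38) ended. Among 21 genes of MHC class I presentation, which displays peptides to T cells, 5 rose and 0 fell, where 9.26% and 7.75% of all genes did. Their median was 0.36. HLA-B stood at 7.40, 7.59 and 7.28 log2 RPKM in Ov4Carbo7 and 6.05, 5.88 and 5.91 in the parental line, a difference of 1.48 (SE 0.54, adjusted p = 0.0442). Without replicate 1 of Ov4Carbo in the fit its SE was 0.30. The immunoproteasome subunit PSMB8 differed by 1.04 (SE 0.24, adjusted p = 0.00391), or 0.99 and not called by log2(RPKM + 1), where 3 members were called higher, and NLRC5, which activates these genes, by 1.27 (SE 0.27, adjusted p = 0.00231). B2M (0.66) and the peptide transporter TAP1 (0.41) were not called. HLA genes are similar in sequence and their reads are uncertain. The count fell to 2 without Ov4Carbo7 replicate 1 or 2 or parental replicate 3 and to 3 without parental replicate 2, and to 0 with the title series term. Under that term 3 members were called lower, PSMB8 (0.26) and NLRC5 (0.04) lost their calls, HLA-B turned to -0.94 without a call and TAP1 to -1.47 with one.

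Epithelial genes fell in Ov4Carbo7. Of 25 genes of epithelial junctions 1 rose and 14 fell (median -1.04), of 21 desmosome and keratin genes 1 rose and 14 fell (median -1.46), and of 24 epithelial regulators 0 rose and 17 fell (median -2.52). Among genes with a mean of at least log2 RPKM 1 over all samples, 7 desmosome and keratin genes and 8 regulators were called lower, against 4.34% of the 12037 genes of that level, with a further 5.08% called higher. CDH1 (ENSG00000039068, chromosome 16), E-cadherin, stood at 1.75, 2.29 and 1.37 log2 RPKM in Ov4Carbo7 and 4.90, 4.66 and 4.33 in the parental line. EPCAM (ENSG00000119888, chromosome 2), an epithelial adhesion molecule, stood at 3.06, 3.04 and 2.93 log2 RPKM in Ov4Carbo7 and 6.13, 5.86 and 5.96 in the parental line. Both were lower in every Ov4Carbo7 sample and still expressed there, with differences of -2.82 (SE 0.32, adjusted p = 1.96e-05) and -2.97 (SE 0.19, adjusted p = 2.92e-07).

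GRHL2 (ENSG00000083307, chromosome 8), a transcription factor that holds the epithelial state, stood at -6.37, -6.05 and -7.13 log2 RPKM in Ov4Carbo7 and 3.41, 3.42 and 3.45 in the parental line. Its Ov4Carbo7 values were near the lowest of the table, a difference of -9.95 (SE 0.72, adjusted p = 6.93e-07), and -3.54 by log2(RPKM + 1). ESRP1, which directs epithelial splicing, stood at -0.82, -0.23 and -1.0 log2 RPKM in Ov4Carbo7 and 5.48, 5.05 and 4.81 in the parental line and differed by -5.79 (SE 0.48, adjusted p = 1.78e-06). OVOL2, a repressor of ZEB1, differed by -2.32 (SE 0.25, adjusted p = 1.39e-05) and ELF3, a factor of epithelial differentiation, by -1.18 (SE 0.26, adjusted p = 0.00283). ESRP2, the paralogue of ESRP1, gave -0.75, under the size required. RBM47, another RNA-binding regulator of epithelial cells, lay the other way, at 0.61, also under that size.

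ST14, or matriptase, stood at -0.43, 1.0 and 0.04 log2 RPKM in Ov4Carbo7 and 5.54, 5.77 and 5.56 in the parental line, a difference of -5.42 (SE 0.28, adjusted p = 6.98e-08). Its inhibitor SPINT1 differed by -3.44 (SE 0.27, adjusted p = 1.36e-06) and the protease PRSS8 by -3.09 (SE 0.42, adjusted p = 8.61e-05), and the receptor ERBB3 differed by -3.35 (SE 0.60, adjusted p = 7.16e-04). The calls of PRSS8 and ERBB3 ended with the title series term, at -1.69 and -1.27. RAB25 (ENSG00000132698, chromosome 1), a GTPase of apical recycling, stood at -6.0, -5.31 and -6.11 log2 RPKM in Ov4Carbo7 and 3.05, 2.39 and 2.04 in the parental line, a difference of -8.30 (SE 0.56, adjusted p = 3.85e-07), and -2.71 by log2(RPKM + 1).

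The promoter of RAB25 is shown because this gene fell to near the lowest values and its window held CACCTG, the E-box bound by ZEB and SNAI factors. The line gives chr1:156060960-156061159 (+), the 200 bases before the start in RefSeq (GRCh38.p14), 5′ to 3′ on the strand of the gene, with 1 of the 2 matches of its window in it, in capitals.
RAB25: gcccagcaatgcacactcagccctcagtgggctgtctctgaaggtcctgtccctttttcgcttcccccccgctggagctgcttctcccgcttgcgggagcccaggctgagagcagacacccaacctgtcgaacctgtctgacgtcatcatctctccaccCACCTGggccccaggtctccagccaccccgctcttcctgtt
CACCTG, searched on both strands, was in 2085 of 11162 windows (18.7%) and in 18 of the 35 epithelial genes with a window (51.4%). It was in 12 of 19 members called lower and in 6 of 14 not called.

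The tight junction genes followed. CLDN4, a claudin of tight junctions, stood at 2.14, 2.70 and 2.18 log2 RPKM in Ov4Carbo7 and 5.55, 5.02 and 5.16 in the parental line, a difference of -2.90 (SE 0.28, adjusted p = 6.93e-06), and CLDN7 differed by -4.30 (SE 0.42, adjusted p = 6.70e-06) and CLDN3 by -2.28 (SE 0.25, adjusted p = 1.50e-05). Occludin (OCLN) differed by -1.02 (SE 0.19, adjusted p = 0.00102), at the edge of the size required, and its call ended without Ov4Carbo7 replicate 1 or parental replicate 3, with the title series term and by log2(RPKM + 1) (-0.73). CDH3, P-cadherin, differed by -4.87 (SE 0.34, adjusted p = 5.80e-07). AMOT, an angiomotin that binds YAP, was the member that rose, by 3.67 (SE 0.54, adjusted p = 1.67e-04), or 2.24 and not called with the title series term.

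Among keratins, KRT7, which marks Müllerian and other simple epithelia, stood at 5.30, 5.33 and 5.82 log2 RPKM in Ov4Carbo7 and 8.30, 8.11 and 8.43 in the parental line, a difference of -2.80 (SE 0.26, adjusted p = 4.75e-06). KRT8 and KRT18, the partner keratins of simple epithelia, differed by -1.21 (SE 0.17, adjusted p = 1.06e-04) and -1.10 (SE 0.14, adjusted p = 6.54e-05) and remained among the well expressed genes, KRT18 at 6.40, 6.41 and 6.47 log2 RPKM in Ov4Carbo7. KRT19, a further simple keratin, differed by -1.46 (SE 0.25, adjusted p = 4.49e-04), with its call lost under the title series term (-1.30), and KRT17, a keratin of basal cells, differed by -5.83 (SE 0.55, adjusted p = 4.80e-06). Desmoplakin (DSP), which ties keratin to desmosomes, stood at 5.88, 6.27 and 6.42 log2 RPKM in Ov4Carbo7 and 7.59, 7.69 and 7.77 in the parental line and differed by -1.49 (SE 0.19, adjusted p = 4.71e-05). Among the desmosomal cadherins DSC3 rose, by 1.66 (SE 0.34, adjusted p = 0.00186), though by 0.83 with the title series term and 0.77 by log2(RPKM + 1), not called in either, and DSG2 and DSC2 gave 0.67 and 0.83, with Ov4Carbo7 above in all samples but under the size required. Plakoglobin (JUP) gave -0.85.

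**Figure D3:**
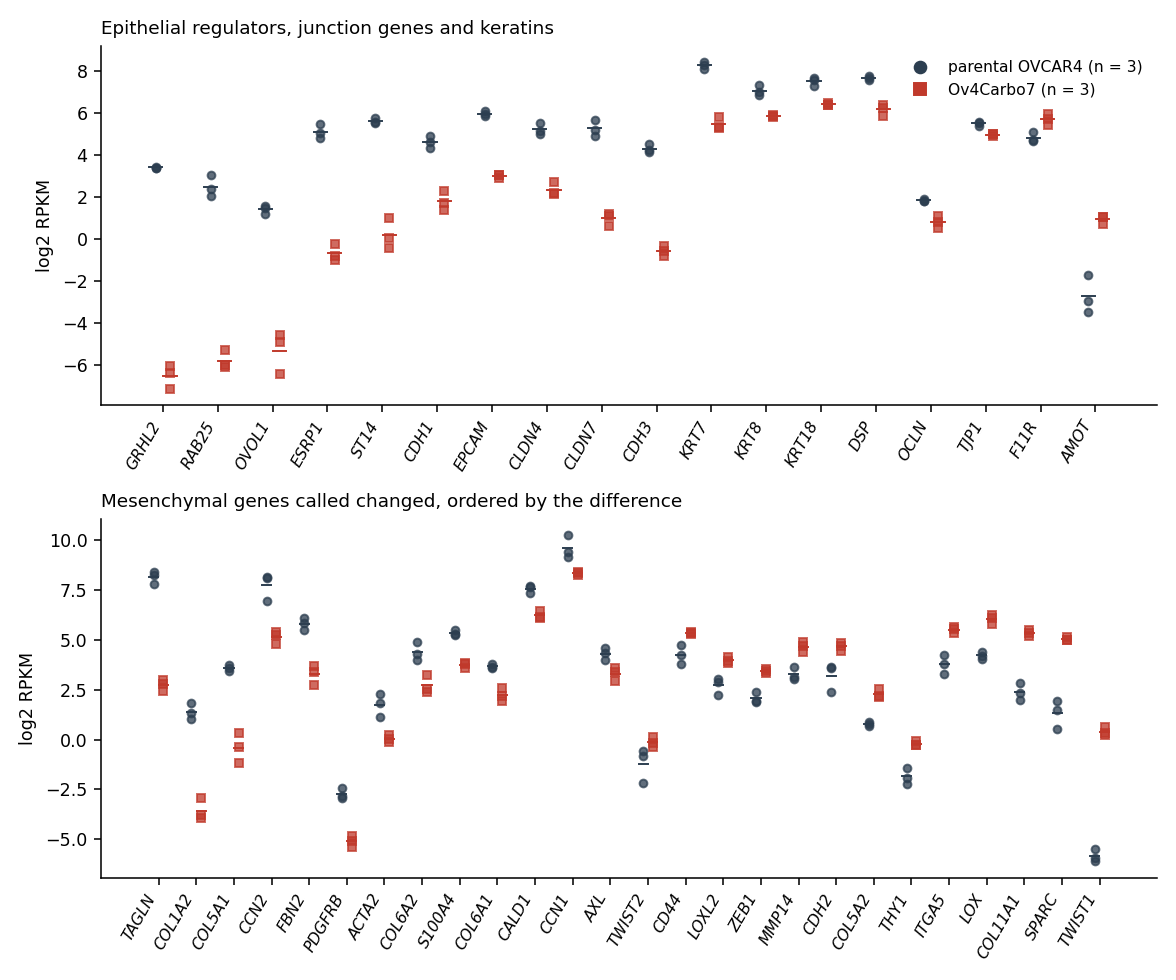
Log2 RPKM of each sample for epithelial genes (top) and the mesenchymal genes called changed, ordered by the difference (bottom), parental OVCAR4 as dark circles and Ov4Carbo7 as red squares, with short lines at the means (n = 3 each). GRHL2, RAB25 and OVOL1 fall to near the lowest values while KRT8 and KRT18 stay above 5. Mesenchymal genes lie on both sides, with 13 called lower at the left and 13 called higher at the right.

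Mesenchymal genes moved in both directions. Of 37 members 13 rose and 13 fell, with a median of -0.25, and 4 rose with the title series term. TWIST1 (ENSG00000122691, chromosome 7), a transcription factor of mesenchymal cells, stood at 0.63, 0.21 and 0.32 log2 RPKM in Ov4Carbo7 and -6.11, -5.51 and -5.94 in the parental line. It went from near the lowest values to a low level, by 6.24 (SE 0.24, adjusted p = 1.14e-08), and 1.18 by log2(RPKM + 1). ZEB1, a repressor of E-cadherin, stood at 3.34, 3.42 and 3.51 log2 RPKM in Ov4Carbo7 and 1.95, 2.37 and 1.90 in the parental line and differed by 1.35 (SE 0.17, adjusted p = 4.65e-05). N-cadherin (CDH2) stood at 4.46, 4.70 and 4.84 log2 RPKM in Ov4Carbo7 and 2.40, 3.66 and 3.56 in the parental line and differed by 1.46 (SE 0.30, adjusted p = 0.00182). The calls of ZEB1 and CDH2 ended with the title series term, at 0.78 and 0.89. SPARC, a matrix glycoprotein, differed by 3.74 (SE 0.28, adjusted p = 9.74e-07) and the collagen COL11A1 by 2.96 (SE 0.41, adjusted p = 9.56e-05).

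Other members of the same list fell. TAGLN, an actin-binding protein of smooth muscle, stood at 2.44, 2.76 and 2.99 log2 RPKM in Ov4Carbo7 and 7.78, 8.24 and 8.42 in the parental line, a difference of -5.42 (SE 0.49, adjusted p = 3.44e-06). CCN2, a target of YAP and of TGF-beta, differed by -2.58 (SE 0.47, adjusted p = 7.55e-04), and the collagens COL5A1 and COL1A2 by -3.99 (SE 0.35, adjusted p = 3.16e-06) and -4.95 (SE 0.42, adjusted p = 2.21e-06), the latter -1.74 by log2(RPKM + 1). AXL, a receptor kinase of mesenchymal cells, differed by -1.01 (SE 0.34, adjusted p = 0.0298), and its call ended without Ov4Carbo7 replicate 1 or 2 or parental replicate 1 or 2, with the title series term (-0.16) and by log2(RPKM + 1) (-0.94). Vimentin (VIM), the mesenchymal filament, stood at 8.15, 8.21 and 8.26 log2 RPKM in Ov4Carbo7 and 7.68, 8.14 and 8.24 in the parental line, high in all 6 samples with overlapping groups. Fibronectin (FN1) and the factor SNAI1 gave -0.06 and -0.50, neither of them called. Of 10 fibroblast markers 5 were analysed, of which 3 rose and 1 fell, and their summed level was 110 to 133 RPKM in Ov4Carbo7 and 50.9 to 71.6 RPKM in the parental line. The 5 had a median difference of 1.12. For 4 of them the Ov4Carbo7 values lay wholly above the parental values, as they did for 29.5% of all genes. The member that fell was PDGFRB, a defining receptor of fibroblasts, at -5.07, -5.38 and -4.82 log2 RPKM in Ov4Carbo7 and -2.45, -2.91 and -2.85 in the parental line. By log2(RPKM + 1) 1 of the markers was called higher and 0 lower. The part of these genes in the result was not tested.

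Of 20 genes of the serous ovarian lineage 1 rose and 7 fell, where 9.26% and 7.75% of all genes did, with a median of -0.95. MUC16 (ENSG00000181143, chromosome 19), which carries the CA125 antigen measured in patients, stood at -0.44, 0.50 and -0.70 log2 RPKM in Ov4Carbo7 and 5.60, 4.12 and 4.07 in the parental line. All Ov4Carbo7 values were lower by more than 3 log2 units than any parental value, a difference of -4.81 (SE 0.49, adjusted p = 9.40e-06). WFDC2, or HE4, another serum marker, stood at 2.62, 2.92 and 1.75 log2 RPKM in Ov4Carbo7 and 5.47, 4.60 and 4.78 in the parental line and differed by -2.52 (SE 0.39, adjusted p = 2.34e-04), or -1.50 and not called with the title series term. PAX8 gave 0.73 (SE 0.12, adjusted p = 4.61e-04), under the size required.

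Few DNA repair genes were called. Of 46 genes of the Fanconi anemia and homologous recombination pathways 0 rose and 1 fell, where 9.26% and 7.75% of all genes did, with a median of -0.17. Of 32 genes of excision, mismatch and translesion repair 0 rose and 1 fell, with a median of -0.06. In the first list the Ov4Carbo7 values lay wholly below the parental values for 22 members and above for 8. In the second list they lay below for 10 and above for 5. Over all genes these shares were 27% and 29.5%. The series term gave 4 and 2 called lower, and 2 of the first list were lower without Ov4Carbo7 replicate 3 or parental replicate 1 or 2. FANCF, a subunit of the Fanconi core complex, stood at 0.57, 0.81 and 0.53 log2 RPKM in Ov4Carbo7 and 1.97, 1.52 and 1.95 in the parental line. It was lower in all Ov4Carbo7 samples, with a difference of -1.18 (SE 0.18, adjusted p = 1.83e-04), but one of -0.83 on the log2(RPKM + 1) scale, where it was not called. REV3L, the catalytic subunit of polymerase zeta, which copies past platinum adducts, stood at 2.98, 3.32 and 3.28 log2 RPKM in Ov4Carbo7 and 4.16, 4.10 and 4.40 in the parental line. It fell, with a difference of -1.03 (SE 0.13, adjusted p = 5.50e-05), and its call ended without Ov4Carbo7 replicate 1 or parental replicate 3 and by log2(RPKM + 1) (-0.95). BRCA1 stood at 2.87, 3.04 and 3.21 log2 RPKM in Ov4Carbo7 and 2.32, 2.20 and 2.45 in the parental line, higher in each sample, with a difference of 0.72 (SE 0.14, adjusted p = 0.00109) under the size required. BRCA2 and ERCC1 gave -0.50 and -0.00.

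Few proliferation genes were called. Of 43 members 0 rose and 2 fell, where 9.26% and 7.75% of all genes did, with a median of -0.40. For 29 members the Ov4Carbo7 values lay wholly below the parental values, as they did for 27% of all genes. The number called lower was 8 with the series term and 4 without parental replicate 1. CCNE1, cyclin E1, stood at 4.80, 4.98 and 5.09 log2 RPKM in Ov4Carbo7 and 6.32, 6.26 and 6.42 in the parental line, a difference of -1.38 (SE 0.24, adjusted p = 5.26e-04). MCM7, a subunit of the replicative helicase, differed by -1.20 (SE 0.16, adjusted p = 8.66e-05). CDK1, which drives entry into mitosis, stood at 5.34, 5.38 and 5.41 log2 RPKM in Ov4Carbo7 and 6.39, 6.31 and 6.38 in the parental line, a tight difference of -0.98 (SE 0.11, adjusted p = 1.56e-05) just under the size required, and -1.19 and called with the series term. MKI67 gave -0.52, and TOP2A went the other way, at 0.46. Among regulators of the G1 phase, 1 of 18 rose and 3 fell: the inhibitor CDKN1C rose, by 1.35 (SE 0.18, adjusted p = 8.77e-05), and CDK6, CDKN2B and MYCN fell, with differences of -1.55 (SE 0.24, adjusted p = 2.52e-04), -1.03 (SE 0.21, adjusted p = 0.00184) and -4.38 (SE 0.49, adjusted p = 1.97e-05). The call of CDKN2B ended without Ov4Carbo7 replicate 3 or parental replicate 2 and with the title series term. By log2(RPKM + 1) neither CDKN2B (-0.95) nor MYCN (-0.91) was called, which left 1 of the 18 lower. MYC gave -0.10 with overlapping groups.

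Signalling pathways were examined next. Of 46 genes of the Hedgehog, Notch and Wnt pathways 3 rose and 14 fell, with a median of -0.41, and on the log2(RPKM + 1) scale 3 rose and 5 fell. NOTCH3, a receptor often amplified in ovarian cancer, stood at 1.98, 2.25 and 2.07 log2 RPKM in Ov4Carbo7 and 4.84, 4.45 and 4.35 in the parental line, a difference of -2.45 (SE 0.29, adjusted p = 3.21e-05). HEY2, a transcriptional target of Notch, stood at -6.23, -7.30 and -4.95 log2 RPKM in Ov4Carbo7 and 2.91, 2.84 and 3.17 in the parental line. It went from moderate to near the lowest values, a difference of -9.13 (SE 0.54, adjusted p = 1.71e-07), and -3.12 by log2(RPKM + 1). The Wnt ligand WNT7A differed by -1.68 (SE 0.21, adjusted p = 4.34e-05) and the Wnt antagonist SFRP1 by -4.39 (SE 0.28, adjusted p = 2.90e-07). GLI3, a transcription factor of the Hedgehog pathway, rose, by 3.24 (SE 0.18, adjusted p = 1.09e-07).

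Of 48 genes of TGF-beta and BMP signalling and receptor kinases 3 rose and 10 fell, where 9.26% and 7.75% of all genes did. Their median was -0.35. The BMP targets ID1 and ID3 stood at 6.76, 6.99 and 6.63 and 4.59, 5.01 and 4.68 log2 RPKM in Ov4Carbo7 and at 7.95, 8.43 and 8.63 and 5.57, 6.58 and 7.10 in the parental line. Both were lower in every Ov4Carbo7 sample, with differences of -1.55 (SE 0.19, adjusted p = 4.35e-05) and -1.66 (SE 0.37, adjusted p = 0.00309). The receptors ERBB4 and FGFR2 fell, with differences of -3.54 (SE 0.37, adjusted p = 1.21e-05) and -1.80 (SE 0.42, adjusted p = 0.00428). EGF, the ligand of the epidermal growth factor receptor, stood at 1.49, 1.57 and 1.49 log2 RPKM in Ov4Carbo7 and -1.69, -2.32 and -1.72 in the parental line and differed by 3.43 (SE 0.36, adjusted p = 1.09e-05), and the co-receptor TGFBR3 differed by 1.15 (SE 0.16, adjusted p = 1.36e-04). With the title series term the calls of ID3, FGFR2 and TGFBR3 ended, at -1.63, -2.23 and 0.85, and 1 member of the list was higher.

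HOX genes, which set position along the body axis, moved in both directions. Of 27 members 10 rose and 8 fell, where 9.26% and 7.75% of all genes did. On the log2(RPKM + 1) scale 4 rose and 4 fell, where 3.96% and 3.83% of all genes did. The HOXA genes named here rose: HOXA10, a gene of the uterus in development, stood at 2.22, 1.93 and 2.11 log2 RPKM in Ov4Carbo7 and -0.03, 0.23 and 0.03 in the parental line, a difference of 2.01 (SE 0.12, adjusted p = 1.34e-07), HOXA11 differed by 2.76 (SE 0.17, adjusted p = 2.27e-07) and HOXA3 by 1.67 (SE 0.15, adjusted p = 2.94e-06). The HOXB genes named here fell: HOXB9 stood at -0.21, 2.25 and -0.21 log2 RPKM in Ov4Carbo7 and 5.45, 5.38 and 5.89 in the parental line. Replicate 2 of Ov4Carbo7 was again above replicates 1 and 3 and below the parental samples, and the difference was -4.96 (SE 0.50, adjusted p = 8.85e-06). HOXB8 and HOXB5 differed by -3.47 (SE 0.40, adjusted p = 2.24e-05) and -2.92 (SE 0.34, adjusted p = 2.66e-05). HOXB13 of the same cluster, named after its values were seen, rose by 1.46. IGF2BP1, an RNA-binding protein of fetal tissue, stood at 2.78, 3.0 and 3.39 log2 RPKM in Ov4Carbo7 and -1.53, -2.83 and -2.32 in the parental line and rose by 5.29 (SE 0.40, adjusted p = 1.00e-06), while HMGA2, another fetal gene, fell, with a difference of -1.42 (SE 0.19, adjusted p = 6.73e-05). UCHL1, a ubiquitin hydrolase of neurons, rose by 1.69 (SE 0.12, adjusted p = 7.21e-07). Of 18 genes of DNA methylation and the oncofetal group 2 rose and 4 fell, where 9.26% and 7.75% of all genes did. Of 24 genes of neuropeptides and secretory granules listed, 10 were analysed, SST among them. Of these 5 rose and 2 fell, where 9.26% and 7.75% of all genes did. Only 4 had a mean of at least log2 RPKM 1 in either line, and by log2(RPKM + 1) 3 rose and 1 fell. The list was chosen with earlier results of these data known, so its counts were not taken as a result about the group.

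Inflammatory genes were mixed. Of 30 cytokine and NF-kappaB genes 7 rose and 3 fell, with a median of 0.06, and 5 fell without parental replicate 3. The series term gave 2 higher and 5 lower. CXCL5, a chemokine for neutrophils, stood at 5.71, 6.15 and 5.94 log2 RPKM in Ov4Carbo7 and 3.27, 3.54 and 3.10 in the parental line, a difference of 2.63 (SE 0.60, adjusted p = 0.0038). CCL5 differed by 3.59 (SE 0.48, adjusted p = 8.07e-05), the cytokine LIF by 1.37 (SE 0.30, adjusted p = 0.00287) and complement C3 by 1.27 (SE 0.43, adjusted p = 0.0299). The call of LIF ended with the title series term (1.0). IL33, an alarmin, fell, with a difference of -4.19 (SE 0.42, adjusted p = 7.38e-06). Of 39 genes of p53 and apoptosis 4 rose and 1 fell, where 9.26% and 7.75% of all genes did, and 1 rose without parental replicate 3. The inhibitor of apoptosis BIRC3 differed by 2.12 (SE 0.62, adjusted p = 0.0159). CXCL5, C3 and BIRC3 turned, with the title series term, to -0.21, -0.71 and -0.11. The call of C3 also ended without Ov4Carbo7 replicate 2 or 3 or parental replicate 1 or 2, and that of BIRC3 without Ov4Carbo7 replicate 2 or parental replicate 3. Of 25 genes of the ATF4 stress response 5 rose and 0 fell, and 15 rose with the title series term. Of 25 genes of cholesterol and fatty acid synthesis 0 rose and 2 fell, where 9.26% and 7.75% of all genes did. DDIT4, an inhibitor of mTORC1 induced by stress and hypoxia, stood at 7.55, 7.70 and 7.64 log2 RPKM in Ov4Carbo7 and 6.68, 5.89 and 5.28 in the parental line and differed by 1.68 (SE 0.45, adjusted p = 0.00947).

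Differences also ran along chromosomes. Over 11987 genes with a mean of at least log2 RPKM 1 and a known position the median difference was -0.00. It was -0.38 on chromosome 13, where 40 of 211 genes lay above 0, -0.35 on chromosome 21, -0.26 on chromosome 20 and -0.24 on chromosome 7, and 0.31 on chromosome 17. Ov4Carbo4 had a median of 0.36 on chromosome 17, and on chromosome 18 it had 0.18 where Ov4Carbo7 had 0.15. On chromosomes 13 and 7 the medians of Ov4Carbo4 were -0.03 and -0.08, of the same sign but smaller. On chromosomes 20 and 21 they were of the other sign, at 0.08 and 0.05. Ov4Carbo had -0.09 and Ov4Cis -0.81 on chromosome 13, and they had 0.32 and 0.35 on chromosome 17.

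**Figure D4:**
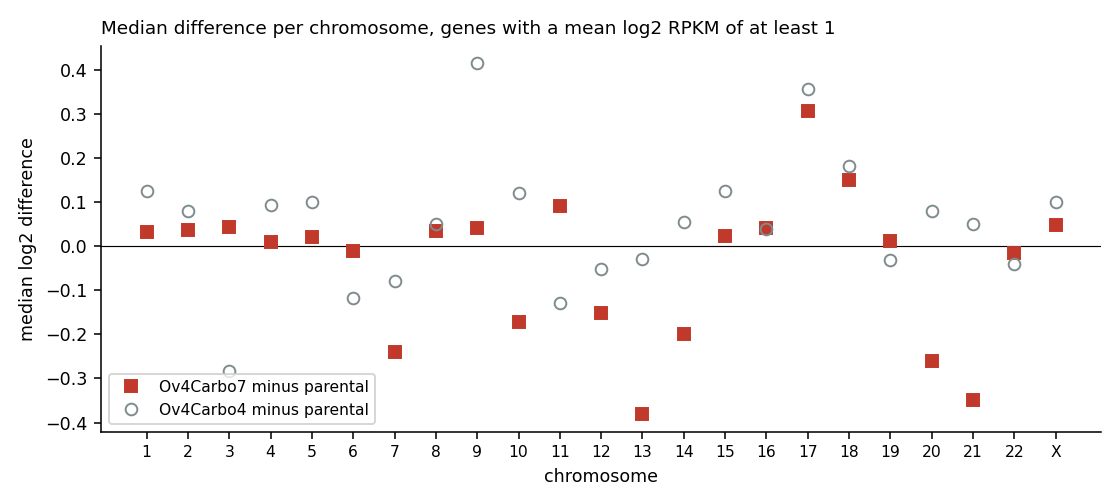
Median log2 difference from parental OVCAR4 per chromosome for Ov4Carbo7 (red squares) and Ov4Carbo4 (open circles), over genes with a mean log2 RPKM of at least 1. Ov4Carbo7 lies lowest on chromosomes 13 and 21, at -0.38 and -0.35, and highest on chromosome 17, at 0.31. The parental samples are shared by both sets of points.

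In sliding windows of 40 neighbouring genes, 407 of 11090 windows had a median of at least 0.5 and 295 a median of -0.5 or less. The lowest window, on chromosome 7 from SBDSP1 to SEMA3D, had a median of -1.02, with 1 of 40 genes above 0 and 20 called lower. Its medians in the 3 Ov4Carbo7 samples were -1.03, -0.96 and -1.02 relative to the parental mean, so they were alike. Ov4Carbo4 had -0.99 there. The highest, on chromosome 17 from PLEKHM1P1 to NT5C, had a median of 0.89. Its median was 0.73 in Ov4Carbo4, 0.74 in Ov4Carbo and 0.61 in Ov4Cis. A window on chromosome 2 from IFIH1 to GPR155 had a median of 0.77, with 38 of 40 genes above 0 and 13 called higher. In Ov4Carbo4 the median of that chromosome 2 window was 0.09. DNA copy number was not measured in these files, and its part in these runs of genes was not tested.

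Genes named above were set beside the 10 expressed neighbours on each side, a look chosen after their values were seen. ABCB1 went against its surroundings: its 20 neighbours had a median of -0.88, with 16 below 0, while ABCB1 itself differed by 9.46. IFIH1 (3.09) and NFE2L2 (1.02) lay among genes that were also higher, with neighbour medians of 0.95 and 0.34 and 19 of 20 neighbours above 0 in each case. MCM7 (-1.20) and CDK6 (-1.55) lay among lower genes, with neighbour medians of -0.59 and -0.44. The neighbours of PLIN2, GRHL2, FANCF and CCNE1 had medians of -0.08 each, far from the differences of the genes themselves.

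Ov4Carbo7 was then set against the other single-cell line and the population of origin. Ov4Carbo7 had 3478 called genes against Ov4Carbo4 (20.9%) and 2214 against Ov4Carbo (13.3%). With the title series term the numbers were 3548 and 1560. The plot of list medians by sample shows where the lines part. Of the 28 hypoxia and glycolysis genes 16 were higher than in Ov4Carbo and 0 lower. The same counts held against Ov4Carbo4, where the list median lay below the parental mean. NDRG1 was higher by 6.02 (adjusted p = 6.12e-06) than in Ov4Carbo4 and by 4.32 (adjusted p = 1.97e-04) than in Ov4Carbo, and ADM by 3.68 (adjusted p = 3.95e-07) and 3.43 (adjusted p = 3.94e-06). Glutathione and NRF2 genes were higher than in Ov4Carbo4 for 16 of 40 members and than in Ov4Carbo for 7, with SLC7A11 higher by 4.27 (adjusted p = 2.05e-07) and 1.51 (adjusted p = 0.00107). ABCB1 was higher by 8.87 (adjusted p = 8.20e-05) and 7.38 (adjusted p = 6.97e-04). Replicate 1 of Ov4Carbo shares the title series of Ov4Carbo7, and replicates 2 and 3 do not. In replicates 1, 2 and 3 of Ov4Carbo NDRG1 stood at 5.52, 2.30 and 2.83 log2 RPKM and ABCB1 at -0.41, -6.37 and -7.30. ADM stood at 2.60, 1.42 and 1.92 there, and SLC7A11 at 4.85, 4.98 and 4.78.

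Among epithelial regulators 13 of 24 were lower than in Ov4Carbo4 and 13 lower than in Ov4Carbo. GRHL2 differed by -6.05 (adjusted p = 2.32e-05) and -3.88 (adjusted p = 0.00133) and CDH1 by -1.81 (adjusted p = 4.46e-04) and -1.08 (adjusted p = 0.0188). In replicates 1, 2 and 3 of Ov4Carbo GRHL2 stood at -4.95, -1.68 and -1.28 log2 RPKM and CDH1 at 2.35, 2.99 and 3.31. RAB25, by contrast, did not pass the test against Ov4Carbo4 or Ov4Carbo, at -1.17 (adjusted p = 0.0973) and -1.38 (adjusted p = 0.0693). The means of Ov4Carbo4 and Ov4Carbo were low too, at -4.64 and -4.42 log2 RPKM. Keratin KRT7 gave -0.15 (adjusted p = 0.65) against Ov4Carbo4, and TWIST1 gave 0.72 (adjusted p = 0.0251), under the size required. Fibronectin was higher in Ov4Carbo7 than in Ov4Carbo4, by 6.86 (adjusted p = 1.26e-07), although it had not differed from the parental line. These 2 contrasts share the Ov4Carbo7 samples and are not independent of each other.

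**Figure D5:**
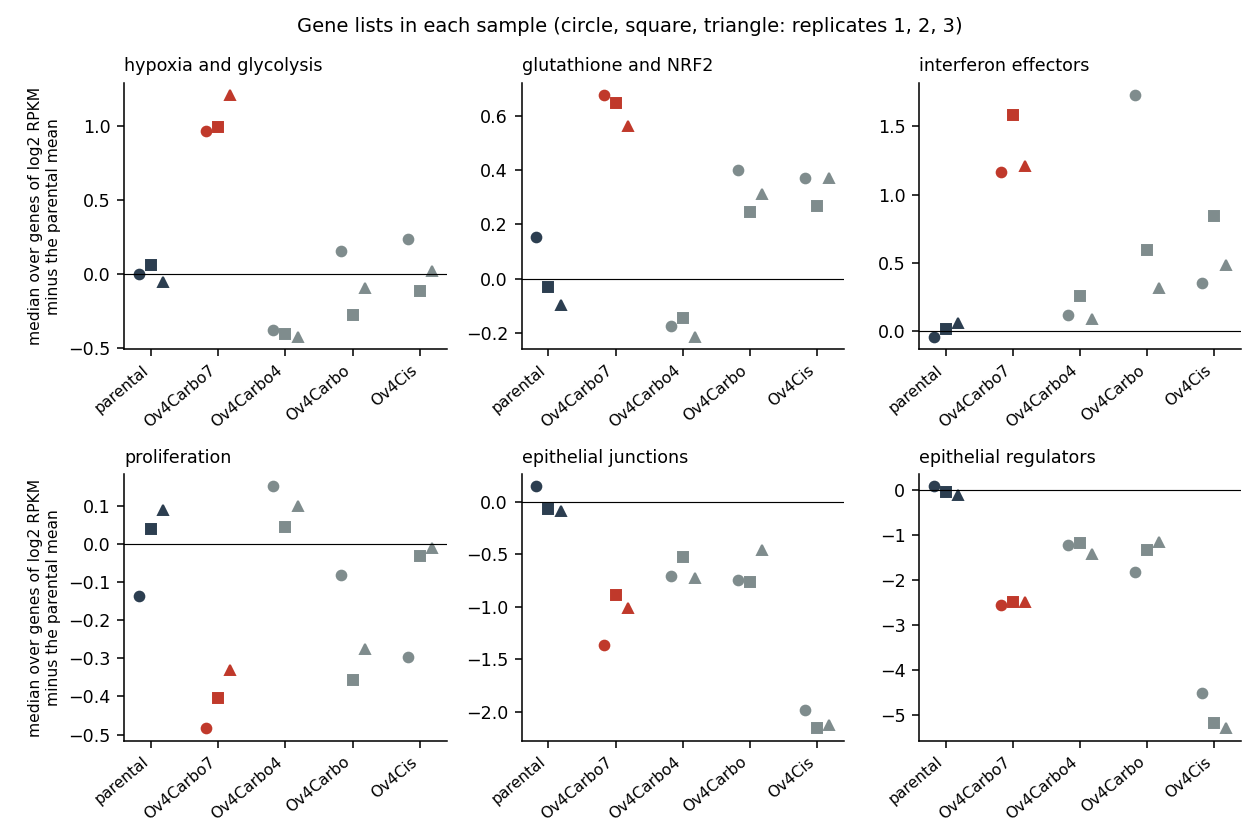
For 6 gene lists, the median over genes of log2 RPKM minus the parental mean, shown for each of the 15 samples (vertical axis, log2 units), with parental samples dark, Ov4Carbo7 red and the other lines grey, and replicates 1, 2 and 3 as circle, square and triangle. For hypoxia and glycolysis the 3 Ov4Carbo7 samples lie at 0.97, 0.99 and 1.21 and every other sample at 0.23 or lower. For interferon effectors replicate 1 of Ov4Carbo lies at 1.73, above all Ov4Carbo7 samples.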

How the data were processed

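RNA of 15 samples, 3 from each of 5 lines, was sequenced after polyA capture. The authors deposited 1 table of log2 RPKM values normalized with cqn (conditional quantile normalization, a correction for length and GC content), as the deposited table is named. The base-2 log of RPKM is thus the authors' value. BWA 0.7.15-r1140, HTSeq, hg19 and GRCh37 are named by the submitters' processing notes, without roles, and strand handling is not given in the sources used here. That the values are on base 2 was checked from their totals. No reads or counts were used, so depth is unknown and no count test was run. Equalizing the sample distributions, as the values show, removes any overall shift in RNA level between lines.

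A model with 5 line means was fitted to all 16604 genes and 15 samples with limma 3.58.1 in R 4.3.3, with Benjamini-Hochberg adjustment per contrast, and adjusted p-values in the text come from it. It was tested on simulated data. Python 3.11.15 with pandas 2.3.3 was used for summaries. Chromosomes and positions came from GENCODE release 29, which held 16499 of the gene identifiers, and symbols came from a separate reference list of gene names. No p was adjusted over a list alone.

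Named genes were the 12 largest called rises and 12 largest called falls with separate groups and a higher mean of at least log2 RPKM 1, the members of each list marked for their role, and up to 3 called members per list and direction. The members and the 30 lists were chosen with earlier results of these data known. Alternatives were log2(RPKM + 1), a filter on mean log2 RPKM of at least 1, a variance trend, quantile normalization, median centring, the 2 groups alone, an adjusted p under 0.01, a replicate block, a title series term and leaving out each sample. Promoter windows ran from 250 bases before to 50 after the RefSeq start (GRCh38.p14). Some results are not reported here.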

Additional observations from a re-analysis of the deposited data

Results flagged for a closer look

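The genes below were called in opposite directions against the parental line in Ov4Carbo7 and in another line, and the direct test between those lines (limma, Benjamini-Hochberg) was called too. Values are log2 differences, Ov4Carbo7 minus the other line. Groups of 3 samples were not tested for outlying samples. Some of the Ov4Carbo7 calls against the parental line were not stable. Those of PLIN2 and RIGI ended when any Ov4Carbo7 or parental sample was left out, and those of C3 and BIRC3 when some were. With the title series term PLIN2, RIGI, CXCL5, C3 and BIRC3 changed sign. The calls of NDRG1, LOX, IFI27, DSC3, ID3 and LIF ended with that term.

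Against Ov4Carbo4, 17 genes met this. Those of redox metabolism were SLC7A11 (4.27), MGST1 (5.39) and AKR1C1 (5.03). Hypoxia and lipid droplet genes were NDRG1 (6.02), LOX (3.90) and PLIN2 (10.67). Interferon genes were IFI27 (4.32) and RIGI (2.40). Adhesion and matrix genes were DSC3 (3.30), COL5A1 (-5.81) and COL11A1 (10.30). Signalling and inflammatory genes were ID3 (-2.84), EGF (4.46), CXCL5 (7.70), C3 (4.90), LIF (2.38) and BIRC3 (4.46).

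Against Ov4Carbo the genes were PLIN2 (7.22) and DSC3 (3.44). Against Ov4Cis they were COL11A1 (10.74), CALB1 (10.84) and ROBO1 (7.26).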

How the results depend on the processing

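Of 141 named genes called against the parental line, all stayed called with a variance trend, quantile normalization or median centring, 140 with the 2 groups alone, 128 at an adjusted p under 0.01, 117 on the log2(RPKM + 1) scale and 91 with the title series term. On the log2(RPKM + 1) scale 658 genes were called higher and 636 lower, with 1746 called against Ov4Carbo4, 823 against Ov4Carbo and 7 higher of the glutathione and NRF2 list (13 on the deposited scale). Among genes with a mean log2 RPKM of at least 1 the counts were 611 higher, 523 lower, 1645 against Ov4Carbo4 and 851 against Ov4Carbo, with 7 desmosome and keratin genes and 8 epithelial regulators lower. This filter tests fewer genes and left no leukocyte marker. With the title series term 2762 genes were called, 1729 of them called in the same direction without it. The term left 5 interferon effectors (25 without it) and 7 hypoxia genes (16 without it) called higher. It turned AKR1B10 to -0.038, PLIN2 to -2.60, IFI44L to -0.21, IFI6 to -0.071, MX1 to -1.40, SAMD9 to -1.0, RIGI to -0.89, IRF7 to -0.44, HLA-B to -0.94, CXCL5 to -0.21, C3 to -0.71 and BIRC3 to -0.11. The cause was not tested, since the term rests on the replicates of Ov4Carbo alone.

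Leaving out 1 of the 6 samples gave 1412 to 1575 genes higher and 1230 to 1334 lower, and kept 128 to 132 of the 141 calls. Leaving out 1 sample of either line compared gave 3303 to 3483 genes against Ov4Carbo4 and 1938 to 2776 against Ov4Carbo, the 2776 without replicate 1 of Ov4Carbo and 1938 to 2199 without an Ov4Carbo7 sample. With the replicate block 2780 genes were called, 2767 shared, and MX1, SAMD9, EPSTI1, RIGI and HLA-B lost their calls. Deviations of same-numbered samples correlated at 0.25, -0.04 and 0.12, so the numbers were not taken to pair the samples. Without replicate 1 of Ov4Carbo in the fit, an alternative chosen after seeing the data, 2917 genes were called, 2821 shared. The depth is unknown, so no limit from read numbers can be given, and differences of genes near the lowest values are uncertain in size.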
